A study of Homo sapiens with 18 samples.

Results

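The 9 genes described here carry decitabine into cells, activate it or inactivate it: SLC29A1, SLC29A2, DCK, CDA, DCTD, SAMHD1, CMPK1, NME1 and NME2. They were listed by name for their part in decitabine handling, with earlier results of these data known. All 9 were found among the 58051 genes of the tables. RNA was sequenced from NCI-H460, an established line of large-cell lung cancer cells, in 6 groups of 3 libraries labelled as biological replicates. Resistant population 1 and resistant population 2, both resistant to decitabine with all-trans retinoic acid (ATRA), and the parental cells were each given 2 µM ATRA with decitabine, labelled as 50 µM, or DMSO alone at 0.7% v/v. The drugs were added 24 h after seeding and the cells were lysed at 72 h, so the exposure was 48 h. All cells are labelled wild type, and the sources used here do not say how the resistant populations were selected or whether each came from 1 clone.

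Decitabine is an analogue of deoxycytidine. It crosses the membrane through nucleoside transporters and is phosphorylated step by step inside the cell. The triphosphate is built into DNA, where it traps DNA methyltransferases. Deoxycytidine kinase performs the first and usually limiting phosphorylation, and cytidine deaminase removes the drug before it can be phosphorylated. Low transporter or kinase levels and high deaminase levels are known ways by which cells escape nucleoside analogues.

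Recovered reads came to 116.8 to 181.4 M per library with the drugs, over restored genes alone, and to 116.9 to 140.9 M with DMSO. Because each treatment has its own table and scaling, populations are compared as normalized counts within a table. Drugs and DMSO are compared as CPM, reads scaled to a common total over all 18 libraries. A gene was called where its adjusted p was under 0.05 (limma, Benjamini-Hochberg over all genes tested). The keratin KRT8, typical of epithelial cells, had 63730 to 216681 normalized counts over the 18 libraries. The epithelial cadherin CDH1 had 0 to 2 reads per DMSO library, although the cells are labelled epithelial. With the drugs CDH1 averaged 61.2 ± 7.97 normalized counts in resistant 1, 42.2 ± 13.4 in resistant 2 and 1403 ± 14.8 in parental cells (SD, n = 3 each).

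With the drugs, resistant 1 had 2 of the 9 genes higher and 3 lower than parental cells, where 34.1% of all 21281 genes tested were called higher and 32.7% lower (66.8% either way). Resistant 2 had 2 higher and 5 lower, against 37.1% and 34.9% (72% either way). With DMSO, resistant 1 had 1 higher and 5 lower, against 29.3% and 26.6% of 21643 genes tested (55.9% either way). Resistant 2 had 2 higher and 6 lower, against 32.1% and 29.8% of all genes (61.9% either way). Compared with resistant 2, resistant 1 had 5 genes higher and 2 lower with the drugs, against 29.2% and 28.4% of all genes (57.6% either way). With DMSO it also had 5 higher and 2 lower, against 27.4% and 26% (53.4% either way). The median log2 fold change of the 9 genes against parental cells was -0.18 in resistant 1 and -0.65 in resistant 2 with the drugs, and -0.48 and -0.80 with DMSO. The median over all genes tested was 0.013 and 0.035 with the drugs and 0.0064 and 0.019 with DMSO.

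**Figure D1:**
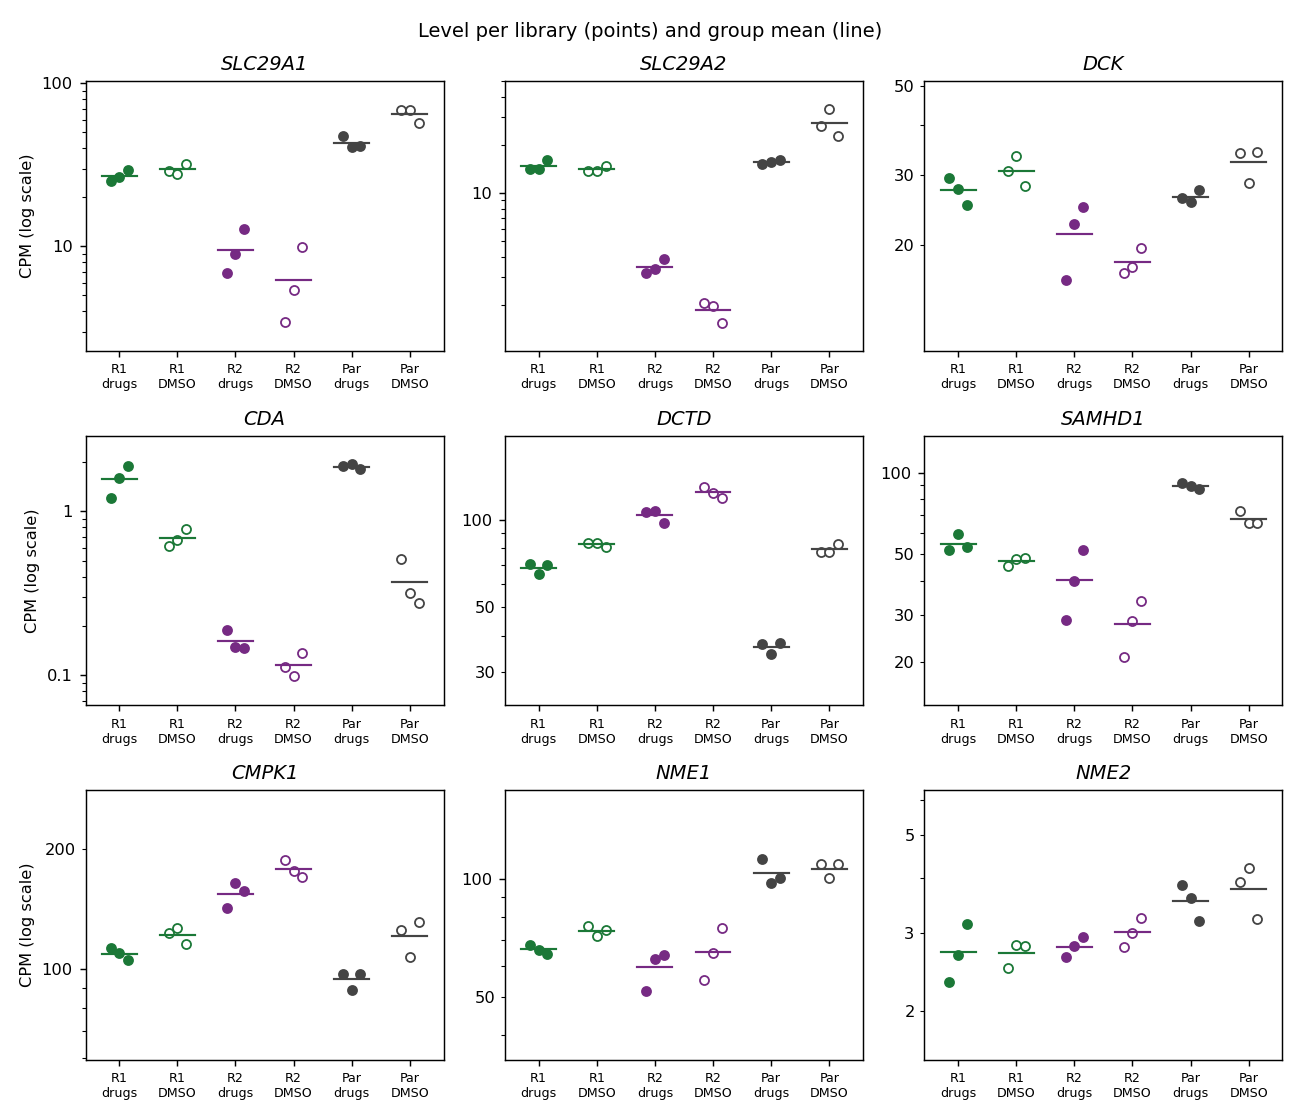
Level of each of the 9 genes in every library, in CPM on a log axis, with resistant 1 (R1), resistant 2 (R2) and parental (Par) cells given ATRA and decitabine (filled points) or DMSO (open points); lines are means of 3 libraries. The transporters SLC29A1 and SLC29A2 sit lowest in resistant 2, and CDA lies between 0.0985 and 1.93 CPM.

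SLC29A1 encodes the equilibrative transporter ENT1, the main carrier of nucleosides into many cells (ENSG00000112759, chromosome 6, 44219505 to 44234151, plus strand, GRCh38). With the drugs it had 3748, 3949 and 4318 normalized counts in resistant 1 and 1062, 1394 and 1932 in resistant 2, against 6646, 5591 and 5756 in parental cells. With DMSO it had 3355, 3226 and 3725 normalized counts in resistant 1 and 409, 641 and 1181 in resistant 2, against 8100, 7782 and 6789 in parental cells. All resistant libraries lay below all parental ones in both treatments. The resistant 2 mean was 24.4% of the parental mean with the drugs and 9.84% with DMSO. For resistant 1 the log2 fold change with the drugs was -0.58 ± 0.174 (SE; adjusted p = 0.0111), and for resistant 2 it was -2.07 ± 0.174 (adjusted p = 6.71e-07). In bulk RNA, fewer cells that express a gene and less RNA of it per cell cannot be told apart.

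SLC29A2 encodes ENT2, a second equilibrative transporter with lower affinity for most nucleosides (ENSG00000174669, chromosome 11, 66362521 to 66372214, minus strand). With the drugs resistant 1 had 2119, 2085 and 2377 normalized counts, resistant 2 had 486, 517 and 590, and parental cells had 2103, 2139 and 2214. Resistant 1 overlapped the parental range (log2 fold change 0.026 ± 0.102 (SE), adjusted p = 0.837), and resistant 2 lay below it (-2.02 ± 0.102, adjusted p = 1.11e-08). With DMSO it had 1579, 1604 and 1715 normalized counts in resistant 1 and 245, 235 and 184 in resistant 2, against 3085, 3816 and 2681 in parental cells. It was lower in both populations there (-0.95 and -3.84, adjusted p = 0.000321 and 5.16e-09), and the resistant 2 mean was 6.92% of the parental mean. The annotation places AP001107.9 on the opposite strand over 10.3% of its exon bases, and the strand setting of the counting is not given in the sources used here.

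SLC29A2 fell with the drugs in parental cells and rose in resistant 2. In parental cells SLC29A2 had 15.1, 15.5 and 16.0 CPM with the drugs and 26.2, 33.4 and 22.7 CPM with DMSO. That fall was 0.77 ± 0.120 (SE) on the log2(CPM + 1) scale (adjusted p = 3.16e-05). In resistant 2 it had 3.16, 3.34 and 3.89 CPM with the drugs and 2.06, 1.97 and 1.55 CPM with DMSO, a rise of 0.64 ± 0.120 (adjusted p = 0.00116), which did not pass with a pseudocount of 10 (0.18, adjusted p = 0.127). The change in resistant 1 was 0.066 ± 0.120 (adjusted p = 0.755). The response differed from that of parental cells by 0.83 in resistant 1 (adjusted p = 0.000824) and by 1.41 in resistant 2 (adjusted p = 4.08e-06).

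SLC29A1 had 47.7, 40.6 and 41.5 CPM with the drugs and 68.9, 68.2 and 57.5 CPM with DMSO in parental cells, groups that do not overlap. Its fall there (-0.57 ± 0.240 (SE), adjusted p = 0.0472) was called under 10 of 29 alternatives, with adjusted p from 0.000118 to 0.135, and not by edgeR's quasi-likelihood test on reads (0.0549). In resistant 2 it had 6.89, 9.01 and 12.7 CPM with the drugs and 3.43, 5.38 and 9.97 CPM with DMSO, groups that overlap (0.60 ± 0.240, adjusted p = 0.097). Each drug library nevertheless lay above the DMSO library of the same number. Same-numbered drug and DMSO libraries deviated together in both resistant populations, and with the number as a block within each population the rise was called (adjusted p = 0.000361). Fitted with no block, it was called without the third DMSO library of resistant 2 (0.96, adjusted p = 0.0021) and without the first drug library of resistant 2 (0.79, adjusted p = 0.045). The resistant 2 response differed from the parental response by 1.17 ± 0.339 (adjusted p = 0.00886).

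DCK encodes deoxycytidine kinase, which adds the first phosphate to decitabine (ENSG00000156136, chromosome 4, 70992538 to 71030914, plus strand). MOB1B lies on the same strand over 6.17% of the exon bases of DCK, and how reads there were counted is uncertain. With the drugs DCK had 4396, 4077 and 3730 normalized counts in resistant 1 and 2527, 3494 and 3780 in resistant 2, against 3657, 3522 and 3802 in parental cells. Both resistant populations overlapped the parental range, and DCK was called in neither (0.15 ± 0.134 (SE), adjusted p = 0.341, and -0.18 ± 0.134, adjusted p = 0.233). With quantile normalization the resistant 2 difference was called (-0.39, adjusted p = 0.0146). With DMSO it had 3542, 3886 and 3260 normalized counts in resistant 1 and 2036, 2109 and 2333 in resistant 2, against 3993, 3268 and 4045 in parental cells. Resistant 1 overlapped the parental range and resistant 2 lay below it, at 57.3% of the parental mean (-0.80 ± 0.115, adjusted p = 9.97e-05).

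The change of DCK with the drugs was called in no population (resistant 1 -0.16, adjusted p = 0.381; resistant 2 0.20, adjusted p = 0.303; parental -0.27, adjusted p = 0.058). The parental change was called under 6 of 29 alternatives, among them leaving out the second parental DMSO library (-0.36, adjusted p = 0.0286). The resistant 2 change was called without the first drug library of resistant 2 (0.37, adjusted p = 0.0145). The resistant 2 response lay 0.48 ± 0.172 above the parental response (adjusted p = 0.0305), a call lost without any 1 of 8 libraries (0.0595 to 0.0862). DCK differed between resistant 1 and resistant 2 with DMSO (0.72 ± 0.115, adjusted p = 0.000304). With the drugs the difference of 0.33 (adjusted p = 0.0499) lost its call in 11 of 22 alternatives, and it was 0.16 without the first library of resistant 2 (adjusted p = 0.149).

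CMPK1 encodes the UMP/CMP kinase, which adds the second phosphate (ENSG00000162368, chromosome 1, 47333797 to 47378839, plus strand). Under the drugs CMPK1 had 16905, 16166 and 15575 normalized counts in resistant 1 and 21970, 25479 and 23768 in resistant 2, against 13562, 12233 and 13518 in parental cells. It was higher in both (0.31 ± 0.077 (SE), adjusted p = 0.00395, and 0.86 ± 0.077, adjusted p = 1.22e-06). With DMSO it was higher in resistant 2 (0.59 ± 0.0998, adjusted p = 0.000356) and had 99.8% of the parental mean in resistant 1 (adjusted p = 0.986). In parental cells it fell by 0.35 on the log2 scale with the drugs (adjusted p = 0.000728), and its changes in resistant 1 (-0.16, adjusted p = 0.151) and resistant 2 (-0.21, adjusted p = 0.0757) did not pass. With the replicate block the resistant 2 change was called (adjusted p = 0.019).

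NME1 and NME2 encode subunits of nucleoside diphosphate kinase, which adds the third phosphate (ENSG00000239672 and ENSG00000243678, chromosome 17, 51153536 to 51162428 and 51165435 to 51171747, plus strand). The readthrough gene NME1-NME2 covers 18.6% of the exon bases of NME1 and 22.9% of those of NME2 on the same strand, and their sequences are alike, so how reads were split between them is uncertain. NME1 was lower in both populations in both treatments. With the drugs it had 10141, 9724 and 9527 normalized counts in resistant 1 and 8007, 9684 and 9704 in resistant 2, against 15605, 13431 and 13894 in parental cells (-0.54, adjusted p = 0.000252, and -0.65, adjusted p = 4.99e-05). With DMSO its log2 fold change was -0.53 for resistant 1 (adjusted p = 0.00152) and -0.69 for resistant 2 (adjusted p = 0.000202). NME2 was lower in resistant 1 with DMSO (290, 329 and 324 against 460, 480 and 381 in parental cells; -0.48, adjusted p = 0.0153). That call was lost without the first library of resistant 1 or without the first or second parental library (0.0535 to 0.0679). Neither gene was called for a change with the drugs in any population (adjusted p from 0.266 to 0.995). With the replicate block the NME1 change in resistant 1 was called (-0.15, adjusted p = 0.0209).

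**Figure D2:**
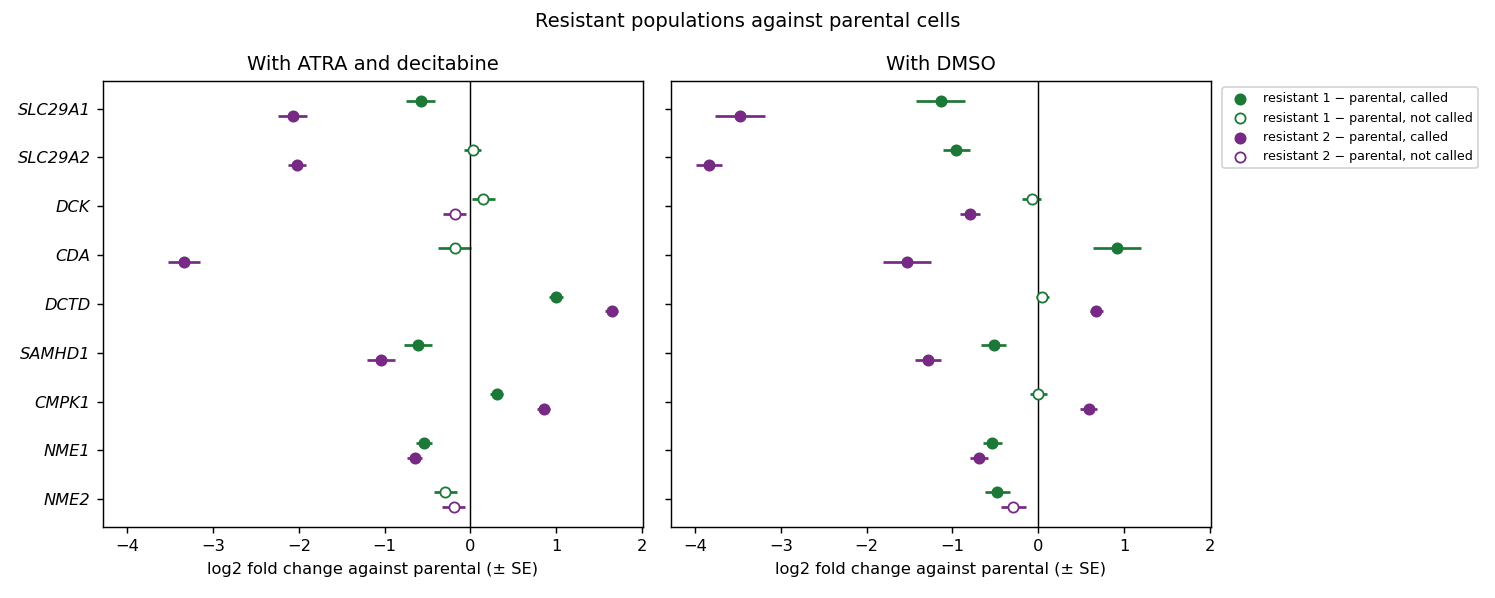
Log2 fold change of each gene in resistant 1 (green) and resistant 2 (purple) against parental cells, with the drugs (left) and with DMSO (right), each on its own normalization; bars are standard errors and filled points were called. DCTD in resistant 2 stands at 1.65 with the drugs and 0.68 with DMSO, and CDA in resistant 2 at -3.34 and -1.53.

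CDA encodes cytidine deaminase, which converts decitabine to an inactive uridine analogue (ENSG00000158825, chromosome 1, 20588948 to 20618908, plus strand). With the drugs CDA had 165, 210 and 365 reads in resistant 1 and 22, 20 and 20 reads in resistant 2, against 301, 301 and 322 in parental cells. The decimal points of 3 of these values, 210, 20 and 20, rest on a choice against a smaller number (21, 2 and 2), and the posterior probability of the whole set was 99.6%, or 97.9% without the population differences seen with DMSO. The 3 parental values match no smaller number of reads. As normalized counts resistant 1 had 181, 234 and 279, resistant 2 had 29.2, 23.0 and 22.3, and parental cells had 261, 266 and 251. Resistant 1 overlapped the parental range (-0.18 ± 0.190 (SE), adjusted p = 0.411). Resistant 2 stood at 9.59% of the parental mean (-3.34 ± 0.190, adjusted p = 3.03e-08).

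With DMSO CDA had 82, 85 and 94 reads in resistant 1 and 13, 11 and 15 reads in resistant 2, against 61, 38 and 30 in parental cells. As normalized counts these are 71.2, 77.3 and 90.8 in resistant 1, 13.4, 11.7 and 16.3 in resistant 2, and 60.1, 36.4 and 32.5 in parental cells. Resistant 2 lay below all parental libraries (-1.53 ± 0.277, adjusted p = 0.000563) and resistant 1 above them. The higher level of resistant 1 (0.92 ± 0.277 (SE), adjusted p = 0.015) lost its call under 4 of 19 alternatives (0.0539 to 0.0719), namely quantile normalization and leaving out the third library of resistant 1, the second parental library or the third parental library.

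CDA rose with the drugs in parental cells and in resistant 1. In parental cells it had 1.88, 1.93 and 1.81 CPM with the drugs and 0.511, 0.319 and 0.275 CPM with DMSO, a ratio of means of 5.09. In resistant 1 it had 1.21, 1.59 and 1.89 CPM with the drugs and 0.616, 0.663 and 0.785 CPM with DMSO, a ratio of 2.27. In resistant 2 it had 0.190, 0.149 and 0.147 CPM with the drugs and 0.112, 0.0985 and 0.137 CPM with DMSO, a ratio of 1.395. These groups do not overlap, but the change was not called (0.058 ± 0.0787 (SE), adjusted p = 0.729). The call was the same under 27 of 27 alternatives, with values from 0.0065 to 0.48. With 11 to 22 reads per library, a change of CDA in resistant 2 can hardly be measured. On the log2(CPM + 1) scale, which understates changes of low genes, the rise was 1.07 ± 0.0787 in parental cells (adjusted p = 4.23e-09) and 0.60 ± 0.0787 in resistant 1 (adjusted p = 3.18e-05). By edgeR on reads it was 2.34 (adjusted p = 3.80e-08) and 1.19 (adjusted p = 0.000239).

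The CDA response minus that of parental cells was -0.48 for resistant 1 (adjusted p = 0.0023) and -1.02 for resistant 2 (adjusted p = 1.38e-06) on the log2(CPM + 1) scale. The resistant 1 response exceeded that of resistant 2 by 0.54 (adjusted p = 0.0086). By edgeR and DESeq2 on reads that last difference did not pass (0.72, adjusted p = 0.44, and 0.74, adjusted p = 0.409).

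DCTD encodes dCMP deaminase, which acts on the monophosphate of deoxycytidine and its analogues (ENSG00000129187, chromosome 4, 182890060 to 182917936, minus strand). Under the drugs DCTD had 10516, 9604 and 10294 normalized counts in resistant 1 and 16352, 16608 and 14700 in resistant 2, against 5213, 4763 and 5238 in parental cells. Every resistant library lay above every parental one (1.00 ± 0.0777 (SE), adjusted p = 5.79e-07, and 1.65 ± 0.0777, adjusted p = 6.75e-09). With DMSO it had 9609, 9689 and 9323 in resistant 1 and 15433, 14732 and 14103 in resistant 2, against 9107, 8828 and 9751 in parental cells. Resistant 1 then overlapped the parental range (0.049, adjusted p = 0.618) and resistant 2 lay above it (0.68 ± 0.0775, adjusted p = 1.71e-05).

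DCTD fell with the drugs in all 3 populations, most in parental cells. There it had 37.5, 34.6 and 37.8 CPM with the drugs and 77.4, 77.4 and 82.6 CPM with DMSO, a change of -1.09 ± 0.0575 (SE, adjusted p = 6.44e-11). In resistant 1 it had 70.3, 65.2 and 69.7 CPM with the drugs and 83.1, 83.1 and 80.6 CPM with DMSO (-0.26, adjusted p = 0.00255). In resistant 2 it had 106, 107 and 97.0 CPM with the drugs and 130, 124 and 119 CPM with DMSO (-0.26, adjusted p = 0.00399). The responses of resistant 1 and resistant 2 differed from the parental response by 0.83 each (adjusted p = 5.11e-07 and 3.79e-07).

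SAMHD1 encodes a triphosphohydrolase that cleaves deoxynucleotide triphosphates, decitabine triphosphate among them (ENSG00000101347, chromosome 20, 36889773 to 36951901, minus strand). Under the drugs SAMHD1 had 7774, 8758 and 7843 normalized counts in resistant 1 and 4413, 6200 and 7884 in resistant 2, against 12725, 12284 and 12110 in parental cells. It was lower in both populations with the drugs (-0.61 ± 0.161 (SE), adjusted p = 0.00548, and -1.04 ± 0.161, adjusted p = 0.000104) and with DMSO, where all resistant libraries again lay below all parental ones. It rose with the drugs in parental cells by 0.40 (adjusted p = 0.048) and in resistant 2 by 0.51 (adjusted p = 0.0433), calls kept under 18 and 13 of 29 alternatives. The resistant 2 change was 0.33 without the first DMSO library of resistant 2 (adjusted p = 0.20004) and 0.31 without the third drug library (adjusted p = 0.22953). The change in resistant 1 was 0.21 (adjusted p = 0.413), called with the replicate block (adjusted p = 0.00647). SAMHD1 was higher in resistant 1 than in resistant 2 with DMSO (0.77, adjusted p = 0.00119). With the drugs that difference was 0.44 (adjusted p = 0.0358), a call kept under 15 of 22 alternatives. TLDC2 lies on the opposite strand over 10.3% of the exon bases of SAMHD1.

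Across the 9 genes, 2 rose and 4 fell with the drugs in parental cells, where 36% of 21789 genes tested rose and 28.6% fell (64.6% either way). In resistant 1, 1 rose and 1 fell, against 14.8% and 13.7% of all genes (28.5% either way). In resistant 2, 2 rose and 1 fell, against 9.78% and 9.06% (18.8% either way). The response lay above that of parental cells for 2 of the 9 genes and below it for 1 in resistant 1, against 16.9% and 26.7% of all genes (43.6% either way). In resistant 2 it lay above for 4 and below for 1, against 19.6% and 29.5% (49.2% either way). Resistant 1 exceeded resistant 2 for 1 gene, CDA, and lay below for 0, against 3.56% and 1.68% of all genes (5.24% either way), with SLC29A2 also below by edgeR and DESeq2. With the replicate block, 4 genes were called for the response in resistant 1 (43.9% of all genes) and 5 in resistant 2 (33.4%). Between resistant 1 and resistant 2 it then called 4 (14.2% of all genes): CDA as above, with SLC29A1 (-0.73, adjusted p = 0.00306), SLC29A2 (-0.58, adjusted p = 0.0345) and SAMHD1 (-0.31, adjusted p = 0.0151) below. These comparisons share libraries, the DMSO and drug libraries of the populations, so their counts are not independent of each other.

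**Figure D3:**
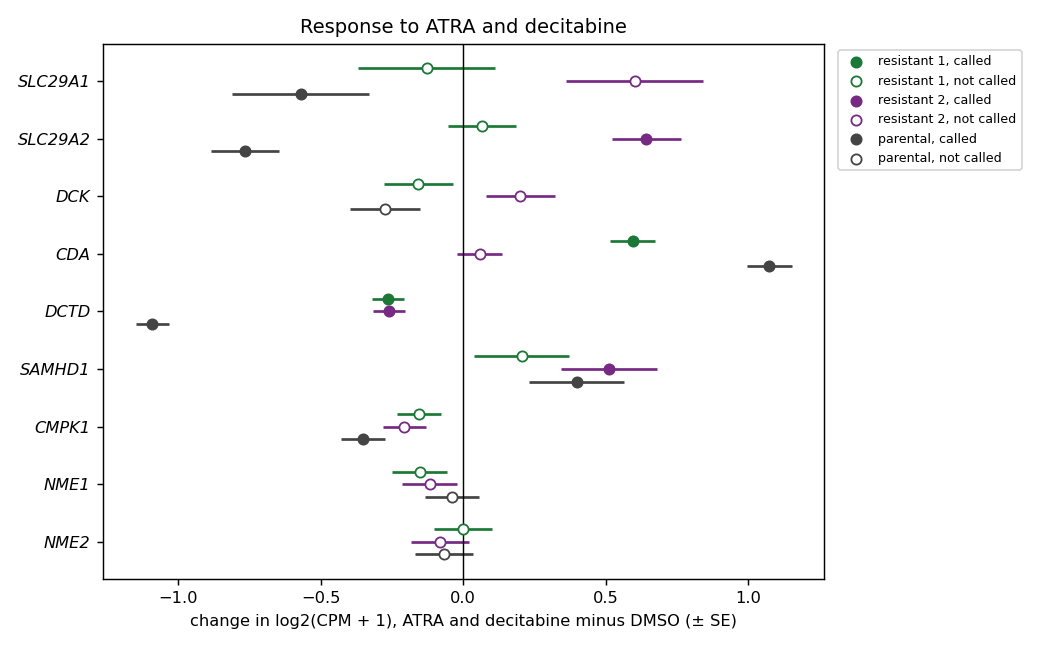
Change of each gene with ATRA and decitabine against DMSO, on the log2(CPM + 1) scale, in resistant 1 (green), resistant 2 (purple) and parental cells (grey); bars are standard errors and filled points were called in the fit with no replicate block. CDA at 1.07 and DCTD at -1.09 in parental cells lie farthest from 0.

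The ratio of DCK to CDA within a library sets the activating enzyme against the inactivating one, and library scaling cancels in it apart from the 1 added to each value. With the drugs the ratio of normalized counts, each plus 1, was 24.1, 17.4 and 13.3 in resistant 1 and 83.6, 146 and 162 in resistant 2, against 13.9, 13.2 and 15.1 in parental cells. Resistant 2 lay above all parental libraries, by 3.16 on the log2 scale (two-sided exact permutation p = 0.1, the smallest that 3 against 3 libraries allow), and resistant 1 overlapped them (0.33, exact permutation p = 0.3). With DMSO the ratio was 49.1, 49.6 and 35.5 in resistant 1 and 142, 166 and 135 in resistant 2, against 65.4, 87.4 and 121 in parental cells. On the log2 scale resistant 1 differed from parental cells by -0.9992 (5.47 ± 0.274 and 6.47 ± 0.443, SD, n = 3 each), and resistant 2 differed by 0.73 (7.20 ± 0.154). Both differences gave p = 0.1 in the same exact permutation test. With a pseudocount of 10 the resistant 2 difference was 0.33 (exact permutation p = 0.3).

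**Figure D4:**
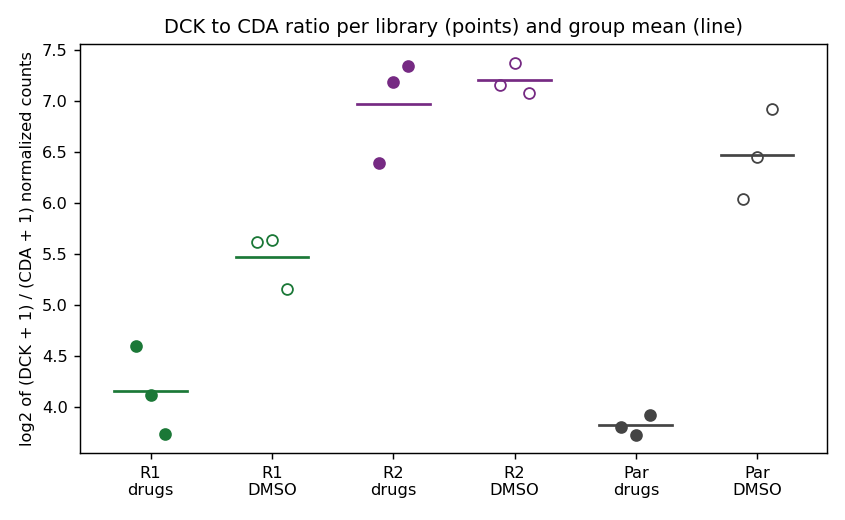
Log2 ratio of DCK to CDA, each as normalized counts plus 1, per library (points) and as the mean of 3 libraries (lines), with the drugs (filled) and with DMSO (open). Resistant 2 stands at 6.97 with the drugs and 7.20 with DMSO, and parental cells at 3.81 and 6.47.

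The level of each gene was also compared with the others per kilobase of exon. In parental cells with DMSO the order was CMPK1 (27.9 to 34.2 CPM per kb), NME1 (29.3 to 31.7), DCTD (22.3 to 23.8), SLC29A1 (13.0 to 15.6), SLC29A2 (8.35 to 12.3), DCK (8.88 to 10.6), SAMHD1 (5.78 to 6.43), NME2 (1.226 to 1.597) and CDA (0.286 to 0.530). CMPK1 and NME1 overlapped, as did SLC29A2 and DCK. In resistant 2 with DMSO SLC29A2 ranked below NME2 (0.569 to 0.758 against 1.06 to 1.24 CPM per kb). With the drugs CDA ranked above NME2 in parental cells (1.88 to 2.01 against 1.22 to 1.46 CPM per kb). How reads were split between NME1, NME2 and NME1-NME2 is uncertain, so the places of NME1 and NME2 in these orders are uncertain too.

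By trapping DNA methyltransferases, decitabine lowers DNA methylation, which in mammals lies mostly at CG pairs. The promoter windows of the genes differ in how many they hold. RefSeq (GRCh38.p14) gave windows of 250 bases for 8 of the 9 genes. The CDA window holds 5 CG pairs, and 38.1% of 35116 RefSeq promoter windows hold at most as many, with a median of 11. The DCK window holds 31, the SLC29A1 windows 19 and 27, the DCTD windows 23 and 40, the SAMHD1 window 14, the CMPK1 and NME1 windows 16 each, and the NME2 windows 8, 25 and 32. DNA methylation was not measured here. The stretches below hold no annotated exon bases and lie within RefSeq promoter windows, for the gene that rose most with the drugs in parental cells and 2 that fell, with CG pairs in capitals. They lie at chr1:20588847-20588947 (plus strand), chr6:44219365-44219504 (plus strand) and chr4:182917612-182917861 (minus strand).
CDA: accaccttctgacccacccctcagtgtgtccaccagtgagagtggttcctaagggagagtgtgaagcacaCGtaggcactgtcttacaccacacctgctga
SLC29A1: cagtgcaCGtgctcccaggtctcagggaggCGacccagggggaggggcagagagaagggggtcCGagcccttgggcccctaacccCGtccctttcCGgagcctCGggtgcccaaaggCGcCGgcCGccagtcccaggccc
DCTD: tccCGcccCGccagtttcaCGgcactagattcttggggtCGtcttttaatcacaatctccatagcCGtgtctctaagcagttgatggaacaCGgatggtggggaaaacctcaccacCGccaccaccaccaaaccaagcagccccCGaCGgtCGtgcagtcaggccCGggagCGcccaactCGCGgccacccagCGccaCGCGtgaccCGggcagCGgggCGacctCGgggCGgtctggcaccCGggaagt
The CDA stretch of 101 bases holds 1 CG pair, the SLC29A1 stretch of 140 bases holds 9 and the DCTD stretch of 250 bases holds 23. The DCTD stretch lies inside the span of the gene in GENCODE, before an inner start site. The bases right after it were not found in a GENCODE transcript of DCTD, unlike those after the DCTD window with 40 CG pairs. In parental cells SAMHD1 also rose, and CMPK1 and SLC29A2 also fell, and none of these is printed. The fall of SLC29A1 was called under 10 of 29 alternatives. Whether numbers of CG pairs go with the changes was not tested.

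Levels of proliferation genes moved with several of these results, and their part in them was not tested. Of 18 proliferation genes, 0 were higher and 16 lower in resistant 1 with the drugs (median log2 fold change -0.72), and 0 and 14 in resistant 2 (-0.91). Among all genes, 34.1% were higher and 32.7% lower in resistant 1, and 37.1% and 34.9% in resistant 2. With DMSO, 0 of the 18 were higher and 18 lower in resistant 1 (-1.32) and 0 and 17 in resistant 2 (-2.09). There 29.3% and 26.6% of all genes were called in resistant 1, and 32.1% and 29.8% in resistant 2. Summed over the list, resistant 1 held 287615 to 330419 normalized counts with the drugs, resistant 2 held 221726 to 318291, and parental cells held 510467 to 521633. With DMSO these sums were 209680 to 223801 for resistant 1, 119729 to 190317 for resistant 2, and 476219 to 567953 for parental cells. The drugs raised 15 of the 18 in resistant 2 and lowered 0, lowered 9 and raised 1 in parental cells, and raised 1 in resistant 1. Of all genes, 9.78% rose and 9.06% fell in resistant 2. In parental cells 36% of all genes rose and 28.6% fell, and in resistant 1 these shares were 14.8% and 13.7%.

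Levels of epithelial genes also differed between groups, and their part in the results was not tested. Of 6 listed, 1 was higher and 3 lower than in parental cells in resistant 1 with the drugs, and 0 and 6 in resistant 2 (median log2 fold change -1.52). Of all genes, 66.8% were called either way in resistant 1 and 72% in resistant 2. With DMSO 5 of the 6 were tested, of which 1 was higher and 2 lower in resistant 1, and 0 and 3 in resistant 2. There the shares of all genes called either way were 55.9% and 61.9%. The drugs raised 4 of the 6 and lowered 1 in resistant 1, raised 3 and lowered 1 in resistant 2, and raised 5 and lowered 1 in parental cells. Of all genes, 28.5%, 18.8% and 64.6% were called either way for these responses. The sums of the 6 epithelial genes with the drugs were 396265 to 526800 normalized counts for resistant 1, 180139 to 232010 for resistant 2, and 337964 to 444604 for parental cells. With DMSO the sums were 300035 to 436344 for resistant 1, 137175 to 205657 for resistant 2, and 223220 to 269431 for parental cells. KRT8, KRT18 and KRT19 make up most of these sums. With the drugs, mean KRT19 was higher in resistant 1 than in parental cells (150200 and 45730 normalized counts). EPCAM (94.8 and 1028) and CDH1 (61.2 and 1403) were lower there.

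Within resistant 2, the library with the highest SLC29A1 was also the highest for MKI67, the Ki-67 proliferation marker. With the drugs MKI67 had 19462, 22324 and 26816 normalized counts, beside 1062, 1394 and 1932 for SLC29A1, 486, 517 and 590 for SLC29A2 and 4413, 6200 and 7884 for SAMHD1. With DMSO MKI67 had 7638, 8998 and 11425 normalized counts, beside 409, 641 and 1181 for SLC29A1 and 2483, 3377 and 3998 for SAMHD1. SLC29A2 had 245, 235 and 184 with DMSO, lowest in the library with the most MKI67.

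By Pearson correlation of log2(CPM + 1) over the 18 libraries, the genes most like SLC29A1 among 11210 genes with a mean of at least 5 CPM were POLR3K (r = 0.987), DCTPP1 (0.986) and PPM1G (0.986). Those most like SLC29A2 were TEAD2 (0.987), CAPG (0.982) and LRRCC1 (0.981), and those most like DCK were PRPS2 (0.964), MZT1 (0.961) and HTATSF1 (0.960). These values describe libraries that fall into 6 groups, so they follow the group means.

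A further 37 genes of nucleoside transport and nucleotide metabolism were examined beside the 9. With the drugs 33 were tested, of which 15 were higher and 8 lower in resistant 1 (median log2 fold change 0.27) and 15 and 10 in resistant 2 (0.21). Over all genes tested 34.1% were higher and 32.7% lower in resistant 1, and 37.1% and 34.9% in resistant 2. With DMSO 31 were tested, of which 6 were higher and 13 lower in resistant 1 (-0.23) and 5 and 17 in resistant 2 (-0.45), where 29.3% and 26.6% of all genes were called in resistant 1 and 32.1% and 29.8% in resistant 2. The drugs raised 5 and lowered 7 of 33 in resistant 1 (14.8% and 13.7% of all genes), raised and lowered 5 each in resistant 2 (9.78% and 9.06%), and raised 9 and lowered 17 in parental cells (36% and 28.6%).

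TK2, the mitochondrial kinase that phosphorylates thymidine and deoxycytidine, was higher in both populations with the drugs (1.88 and 2.06) and with DMSO (1.42 and 1.83; highest adjusted p = 1.21e-06). NT5E, the ectonucleotidase CD73, was higher in both with the drugs (0.87 and 1.46) and with DMSO (1.09 and 2.59; highest adjusted p = 0.00013). UCK2, a uridine and cytidine kinase that activates azacitidine but not decitabine, was lower in both with the drugs (-0.83 and -0.81) and with DMSO (-1.28 and -1.48; highest adjusted p = 4.98e-07). DCTPP1, which hydrolyses dCTP and analogues of it, was lower in both with the drugs (-0.38 and -1.28) and with DMSO (-0.50 and -1.73; highest adjusted p = 0.0409). PNP, purine nucleoside phosphorylase, rose in parental cells with the drugs, to 564 ± 38.7 CPM against 128 ± 9.29 CPM with DMSO (SD, n = 3 each; 2.13 on the log2 scale, adjusted p = 7.43e-13). With the drugs it changed by -0.33 in resistant 1 (adjusted p = 0.00498), and by -0.31 in resistant 2 (adjusted p = 0.00927), and with the drugs it was lower than in parental cells in both (-3.003 and -2.625). The transporter gene SLC29A4 was higher in both with DMSO (1.26 and 0.97, highest adjusted p = 0.00397). SLC29A3 was lower in both with the drugs (-0.999 and -0.71, highest adjusted p = 0.000419). The kinase gene DGUOK was lower in both with DMSO (-0.45 and -0.45) and higher in both with the drugs (0.27 and 0.41, highest adjusted p = 0.01035).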

How the data were processed

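RNA was sequenced from 18 libraries, 3 per group. Per the submitters' processing notes, FastQC, MultiQC, STAR, featureCounts and DESeq2 were used with GRCh38 (hg38). No versions are given. The authors deposited a DMSO table of counts normalized by DESeq2 (per the labels), a signal whose values all (100%) gave back whole reads (tolerance 0.01). In their other table, for ATRA and decitabine, the same kind of value had lost its decimal points. Each gene's 9 values were restored as whole reads at a likely level, and used where the posterior probability reached 99% (21281 of the 25183 genes that reached 10 normalized counts in 3 libraries, 84.5%). Lowly expressed genes are thus under-represented with the drugs. Tested on the DMSO table without its decimal points, 22 of 18409 resolved genes came out wrong. That test shares the assumptions of the restoration.

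Populations were compared by limma 3.58.1 (trend, R 4.3.3) on log2(normalized count + 1), in 1 fit over the 9 libraries of a table. Responses were tested as log2(CPM + 1), from recovered reads of 18 libraries scaled by TMM (edgeR 4.0.16). P-values were adjusted by Benjamini-Hochberg over all genes tested. Alternatives were edgeR and DESeq2 1.42.0 on reads, TMM, quantile or DESeq2 scaling, other filters and pseudocounts, the compared groups alone, a replicate block, stricter restoration and leaving out each library. No 2 libraries of a group looked like 1 library (chi-square of 8.79 to 224.9 per degree of freedom). The labels call them biological replicates and do not say whether they came from separate cultures, so p-values measure the spread between these libraries. Replicate numbers come from the sample titles, which do not say what a number shares. Deviations of same-numbered drug and DMSO libraries correlated at 0.412 to 0.884 in resistant 1, 0.763 to 0.866 in resistant 2 and -0.285 to 0.479 in parental cells, so numbers were taken to pair libraries in the resistant populations. With DMSO, resistant 1 and resistant 2 correlated at 0.15 to 0.53, and no call there changed with the block. With the drugs, resistant 1 and resistant 2 correlated at 0.0878 to 0.347, and DCK lost its call there with the block (adjusted p = 0.0564). Resistant and parental libraries of the same treatment did not pair (-0.541 to 0.313). A block within each population was added after seeing the data. Genes were placed by the GENCODE annotation of GRCh38. The members, lists and rules for named genes were chosen with earlier results of these data known. Pathway genes are named here from those called in both resistant populations in a table whose mean reached 100 normalized counts. More genes passed than are named, in both directions, so the named ones do not stand for the whole list. The scripts were tested on simulated data.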

Additional observations from a re-analysis of the deposited data

Results flagged for a closer look

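Responses to the drugs were compared between populations by a test of the difference itself (limma on log2(CPM + 1), adjusted over all genes). Resistant 1 against parental cells had 2 of the 9 genes above and 1 below, where 43.6% of all genes were called either way. Resistant 2 against parental cells had 4 above and 1 below, against 49.2% of all genes. Resistant 1 against resistant 2 had 1 above and 0 below, against 5.24%. In resistant 1 against parental cells the called differences were 0.83 for SLC29A2, -0.48 for CDA and 0.83 for DCTD. In resistant 2 against parental cells they were 1.17 for SLC29A1, 1.41 for SLC29A2, 0.48 for DCK, -1.02 for CDA and 0.83 for DCTD. In resistant 1 against resistant 2 the difference was 0.54 for CDA. The DCK difference and the last CDA difference are those that lost their call under some alternatives. Proliferation genes moved with these responses as well, and their part was not tested. Of 18, the drugs raised 15 in resistant 2 (9.78% of all genes) and lowered 9 in parental cells (28.6% of all genes).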

How the results depend on the processing

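No called value of the 9 genes changed sign under any alternative run. Leaving out each library in turn left 1381 gene results on the same side of the threshold, 62 lost their call and 15 gained one. The other alternatives left 1139 on the same side, with 20 lost and 20 gained. Counts of called members with 1 library left out ran from 4 to 6 (resistant 1) and 8 to 9 (resistant 2) against parental with DMSO, and from 5 to 6 and 7 to 7 with the drugs. They ran from 5 to 7 with the drugs and 7 to 8 with DMSO for resistant 1 against resistant 2. For the response they ran from 2 to 2 in resistant 1, 2 to 5 in resistant 2 and 4 to 7 in parental cells. For differences of responses they ran from 3 to 4 (resistant 1 minus parental), 4 to 5 (resistant 2 minus parental) and 1 to 2 (resistant 1 minus resistant 2). The DCK to CDA difference with DMSO lay between -1.22 and -0.77 for resistant 1 and between 0.52 and 0.96 for resistant 2.

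With a stricter posterior for restoration, which leaves 7 of the 9 genes, without CDA and SLC29A2, counts fell to 3 for the parental response, 1 for resistant 1, 1 for resistant 1 minus parental, 3 for resistant 2 minus parental and 0 for resistant 1 minus resistant 2. The count for the resistant 2 response also fell, as did those of resistant 2 against parental cells and against resistant 1 with the drugs, because these genes left the set. Of the 7 genes still tested, SLC29A1 in parental cells alone lost a call in these counts. Without the DMSO population differences, which leaves 8, the resistant 1 response had 1 and resistant 1 minus resistant 2 had 0. Other counts that held CDA with the drugs or for responses fell as well. Resistant 1 minus resistant 2 had 2 with a pseudocount of 0.5 or a filter at 50, where SLC29A2 was added (also by edgeR, -0.82, adjusted p = 0.0224), and the resistant 2 response had 1 with a pseudocount of 10.

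A replicate block common to all populations left the member counts at 6 and 8 with DMSO and at 5 and 7 with the drugs against parental cells. For resistant 1 against resistant 2 it gave 7 with DMSO and 6 with the drugs, where DCK was lost (adjusted p = 0.0564). A block within each population, fitted by limma, was chosen after seeing the data. It gave 4 for the response in resistant 1 (43.9% of all genes) and 5 in resistant 2 (33.4%). For resistant 1 minus resistant 2 it gave 4 (14.2%). Without the block these shares were 28.5%, 18.8% and 5.24%. For resistant 1 minus parental it added SLC29A1 (0.44, adjusted p = 0.01001) and SAMHD1 (-0.19, adjusted p = 0.0355). In parental cells it added DCK (adjusted p = 0.00817). There same-numbered libraries did not all deviate together (-0.285 to 0.479), so their pairing is uncertain. Depth limits CDA, with 11 to 15 reads per resistant 2 library with DMSO.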
